A study of Mus musculus with 66 samples.

Results

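The genes described here move membrane and cargo between the compartments of the cell. They were taken by symbol from a filter array of mouse cerebellum: every probe annotated with 1 gene symbol was a member if that symbol starts with Rab, Snap or Sec and a digit, with Syt, Stx, Vamp, Vps, Snx, Tbc1d or Gdi, or with Cop and a letter from a to g. The rule found 89 genes on 98 probes, of 4209 genes named by 1 symbol and 8448 probes on the filter, and it used no measured value. A further 4 probes carry a name of this kind together with another gene's symbol and were not counted as members. Probes of 1 gene were averaged.

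The cerebellum came from 66 wild-type C57BL/6 mice of both sexes, and the RNA of each mouse was hybridized to its own filter. Mice on caloric restriction (CR) had a fortified feed that was cut in steps from early adulthood. They were about 6 months (9 mice, 174 to 194 days), 16 months (10 mice, 472 to 499 days) or 24 months old (8 mice, 673 to 743 days). Mice fed ad libitum (AL) were in the third week (5 mice, 17 to 21 days), in the sixth week (5 mice, 33 to 44 days), or about 6 months (10 mice, 169 to 194 days), 16 months (10 mice, 476 to 499 days) and 24 months old (9 mice, 704 to 743 days). No group carried a transgene or a mutation. The restricted males of the oldest cohort were all 673 days old, against 719 to 743 days for the AL males, so that diet and age cannot be told apart between them. Restricted females of that cohort were 703 to 743 days old, and AL females 704 to 733 days. The values are Z scores, which give the distance of a probe from the mean of its array in SDs of that array. A difference of 1 Z is thus 1 such SD, and no fold can be had from it. Signal over background was not kept, so precision can be judged only from the spread between arrays.

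Rab proteins are small GTPases that mark each compartment and recruit its motors and tethers. GDI extracts the GDP-bound form from membranes, and TBC domain proteins switch Rabs off by speeding GTP hydrolysis. Coat complexes (COPI and COPII) and sorting nexins shape and fill carriers, Vps tethering complexes hold a carrier at its target, and SNAREs of the syntaxin, VAMP and SNAP families, with their Sec1/Munc18 partners, drive fusion. In neurons the same machinery fills and releases synaptic vesicles and recycles receptors along dendrites such as those of Purkinje cells.

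By these roles the members were sorted into synaptic and regulated secretion (6 genes: Rab3b, Rab3d and Rab27a, the Rab27 effector Sytl4, the synaptotagmin Syt11, and Stxbp5, or tomosyn, a brake on SNARE assembly), endosome and lysosome (43 genes), endoplasmic reticulum and Golgi (19 genes, called secretory), cell surface (7 genes) and regulators of Rabs (13 genes: Gdi2 and 12 Tbc1d genes). Vps72, a subunit of chromatin complexes, met the rule by its name alone. Of a list of 27 textbook members, 12 were measured: Rab3b, Rab5a, Rab11a, Rab11b, Vps26a, Vps29, Vps35, Snx1, Snx2, Copa, Copg1 and Gdi2. The classic synaptic proteins Snap25, Syt1, Vamp2, Stx1a and Rab3a were not analysed here, so the synaptic class covers a small side of vesicle release.

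Promoters are shown for the 3 members on which the diet and juvenile comparisons turned: Gdi2, Vps45, the Sec1/Munc18 protein of endosomal syntaxins, and Sec23ip, a partner of the COPII coat. RefSeq (GRCm38.p6) gave a window from 250 bases before to 50 after the gene start for 76 of the 89 members. The windows lie at chr13:3537825-3538124 on the plus strand for Gdi2, at chr3:96058406-96058705 on the minus strand for Vps45 and at chr7:128744620-128744919 on the plus strand for Sec23ip. Capitals mark matches, on either strand, to the GC box GGGCGG, the CCAAT box or the E box CACGTG, the core of the element through which TFEB acts on lysosomal genes.
Gdi2: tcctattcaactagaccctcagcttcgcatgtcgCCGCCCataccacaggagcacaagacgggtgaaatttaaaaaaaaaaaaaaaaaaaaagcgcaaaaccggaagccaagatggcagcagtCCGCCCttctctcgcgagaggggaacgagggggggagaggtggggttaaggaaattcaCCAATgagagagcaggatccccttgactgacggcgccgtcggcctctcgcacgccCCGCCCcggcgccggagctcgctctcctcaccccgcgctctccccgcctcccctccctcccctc
Vps45: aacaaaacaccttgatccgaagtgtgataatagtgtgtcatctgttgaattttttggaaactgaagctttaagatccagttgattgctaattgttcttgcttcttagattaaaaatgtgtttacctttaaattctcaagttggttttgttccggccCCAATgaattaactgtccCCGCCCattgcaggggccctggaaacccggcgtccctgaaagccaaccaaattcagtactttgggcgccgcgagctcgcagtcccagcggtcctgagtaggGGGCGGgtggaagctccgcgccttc
Sec23ip: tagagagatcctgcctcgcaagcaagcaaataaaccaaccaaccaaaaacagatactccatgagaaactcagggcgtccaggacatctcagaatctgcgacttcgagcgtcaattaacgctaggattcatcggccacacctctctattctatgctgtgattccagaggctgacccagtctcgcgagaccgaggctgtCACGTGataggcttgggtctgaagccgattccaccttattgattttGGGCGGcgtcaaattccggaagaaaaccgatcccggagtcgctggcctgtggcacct

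The GC box letters were in 54 of the 76 member promoters (71.1%) and in 35.9% of all 27018 promoters of the table. CACGTG was in 14 (18.4%) and in 7.24%, and CCAAT in 25 (32.9%) and in 37.9%. TATAAA was in 5 (6.58%; Rab3b, Snx33, Stx3, Vps13d and Vps37c) and in 14.2%, and the cAMP response element TGACGTCA in 2 (2.63%; Cope and Rab5a) and in 1.88%. Member promoters also had a median GC content of 61.2%, against 52.7% over all promoters, and a median of 21 CpG dinucleotides, against 7. GGGCGG and CACGTG both hold a CpG, and these letters are a description of the windows, not evidence that a factor binds. The promoters compared with are those of the whole RefSeq table, also of genes not on the filter. No share was taken over the genes of the filter, so the members are not set apart from those genes here.

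Before the levels are read, 4 facts of the arrays bear on them. On 3 CR arrays (1 male and 1 female at 16 months, 1 female at 24 months) the median correlation with the other arrays was 0.695, 0.701 and 0.82, against 0.921 to 0.975 on the other 63, and tests were run on those 63, which left 8 CR mice at 16 months and 7 at 24 months. Probe names could not be relied on: over 561 genes with 2 or more probes, mean levels of the probes correlated by 0.114, and Xist, which is transcribed in females, averaged -0.983 ± 0.153 in females and -1.02 ± 0.164 in males (SD, n = 28 and 25 adults; limma, unadjusted p = 0.483). Every gene name below therefore stands for a probe as annotated. Of 8 lists of cell type markers, those of granule neurons and oligodendrocytes had no measured gene. The Purkinje cell markers Calb1 and Car8 averaged -0.015 and 0.841, so the tissue could be checked only in part.

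A Z score also varied with the number of a probe. Probe numbers were read in blocks of 22, and probes at positions 20 to 22 of a block were low on average, with means of -0.95, -1.21 and -0.796. These positions come from probe numbers alone, and places on the filter were not used. Of the members, 8 probes lay there, of which 7 were below 0 and 5 below -1. These 5 were the only probes of the Golgi Rab Rab33b, of Rab36, of the SNARE Sec22b and of the sorting nexins Snx14 and Snx1. Over all probes 57.1% at these positions were below -1, against 7.98% elsewhere, and 14 member probes in all were below -1. A low score of these genes was therefore not read as a low transcript level.

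**Figure D1:**
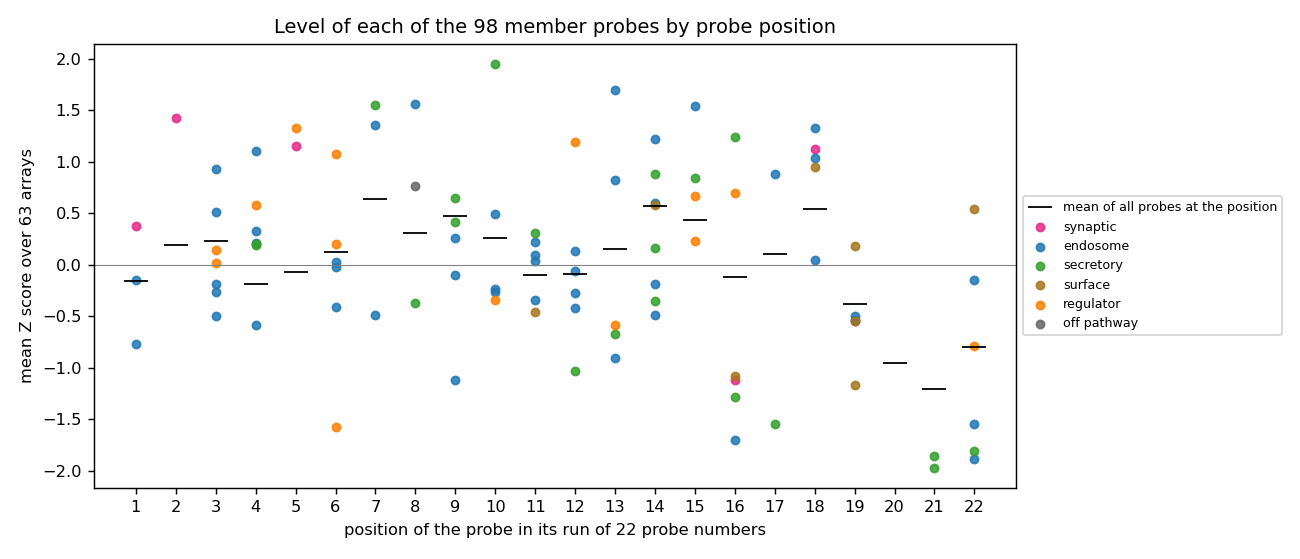
Mean Z score of each member probe over 63 arrays (vertical axis, SD units of an array) against its position in a run of 22 probe numbers (horizontal axis). Points are the 98 member probes, coloured by class, and black dashes are the means of all probes at the position. The dashes at positions 20 to 22 lie at -0.95, -1.21 and -0.796, and 7 of the 8 member probes there are below 0.

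Within these limits, 48 of the 89 members (53.9%) had a mean Z score above 0, against 44.5% of all genes. The median over members was 0.139, with 0.757 for the synaptic class, 0.235 for regulators, 0.19 for the secretory class, -0.0261 for the endosomal class and -0.457 for surface genes, beside -0.0281 over all 7782 features tested (genes, and probes with several symbols or none). Among the probes with the strongest hybridization were those of Copa, the alpha subunit of the COPI coat, at 1.95, of Vps45 at 1.70, of Sec23ip and Rab11b at 1.55 each and of Rab27a at 1.43. Rab11b, a Rab of recycling endosomes, was measured by 2 probes of nearly the same level (1.54 and 1.56), whose deviations from the group means correlated by 0.656 over 63 arrays.

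The other 8 members with 2 probes behaved less alike. The deviations of their probes correlated by -0.598 (Vps41, a subunit of the HOPS tether) to 0.274 (Snx8), and the median over the 9 genes was 0.185, against 0.0625 over all genes with several probes. For 4 of them the mean levels of the probes differed by more than 1: Rab11a (1.11 and -0.584), Rab40c (0.187 and -1.17), Tbc1d23 (0.0184 and 1.19) and Vps41 (-0.494 and -1.7). Cope, Rab12, Snx5 and Snx8 had gaps of 0.308 to 0.522. Values of Cope, Rab11a, Rab40c, Snx8 and Tbc1d23 below are means of probes that moved together little or not at all.

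The retromer, which returns receptors from endosomes, was measured by 3 core subunits. The means of Vps35 were 1.06 ± 0.13, 1.03 ± 0.217 and 1.04 ± 0.115 in CR mice of 6, 16 and 24 months, and 1.02 ± 0.131, 1.05 ± 0.135 and 1.03 ± 0.148 in AL mice of these ages (SD, n = 9, 8, 7 and 10, 10, 9). The 6 adult cohort means thus lay within 0.0433 of each other, less than the SD between mice in each of them. Those of Vps29 spanned 0.0793, also less than each SD, and those of Vps26a 0.107, against SDs of 0.105 to 0.17. Rab5a, the Rab of early endosomes, spanned 0.128, with cohort SDs of 0.114 to 0.223. Copa spanned 0.096 and Rab3b, a synaptic vesicle Rab, 0.127. The span of the 6 adult means had a median of 0.117 over the members, from 0.0171 for Snx8 to 0.32 for Rab36, and 8 members (8.99%) exceeded 0.2. Over all features the median was 0.116 and 12% exceeded 0.2.

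Mice of 1 group differed most in the endosomal genes Snx14 (SD 0.43), Snx33 (0.273) and Snx4 (0.259), in the secretory genes Rab33b (0.298), Sec22a (0.285) and Sec31a (0.279) and in the regulators Tbc1d9 (0.316), Tbc1d14 (0.227) and Tbc1d2b (0.224). In the synaptic class the SDs reached 0.192 for Rab3b, 0.184 for Stxbp5 and 0.183 for Rab27a, and among surface genes 0.198 for Stxbp2, 0.182 for Snap23 and 0.174 for Rab40c. The steadiest member was Vps8, a subunit of the CORVET tether, with 0.0746.

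The classes were also followed over ages and diets. The median of the 6 synaptic genes in a mouse averaged 0.698 ± 0.0544, 0.688 ± 0.11 and 0.747 ± 0.102 at 6, 16 and 24 months in CR mice, and 0.688 ± 0.147, 0.669 ± 0.095 and 0.711 ± 0.165 in AL mice of these ages (SD between mice, n = 9, 8, 7 and 10, 10, 9). In younger AL mice it was 0.785 ± 0.0334 in the third week and 0.701 ± 0.092 in the sixth (n = 5 each). The median of the 43 endosomal genes was -0.0139 ± 0.0716, -0.03 ± 0.0487 and -0.0571 ± 0.0795 in CR mice, and -0.014 ± 0.0552, -0.0195 ± 0.0682 and -0.0789 ± 0.0513 in AL mice. The median of the 19 secretory genes was 0.188 ± 0.0922, 0.139 ± 0.122 and 0.16 ± 0.0726 in CR mice, and 0.138 ± 0.139, 0.17 ± 0.0665 and 0.141 ± 0.0808 in AL mice. At each adult age CR and AL differed in these 3 medians by less than the SD between the mice of either diet. The endosomal median of AL mice was lower at 24 than at 6 months by more than either SD. The median of all 89 members was 0.0914 ± 0.0623 in CR and 0.0256 ± 0.0469 in AL mice of 24 months, a gap slightly above either SD, and 0.127 ± 0.0441 and 0.1 ± 0.0445 in AL mice of 16 and 6 months. These medians were not tested.

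Ages, diets and sexes were compared with limma over all 7782 features, with p values adjusted by the Benjamini-Hochberg method over all of them and a gene called at an adjusted p under 0.05. No member was called in any of 14 comparisons. In the 12 comparisons other than those with the third week, 0 features were called (0%). Counts at an unadjusted p under 0.05 and under the criteria of the study (a Z-ratio, or difference divided by its SD over all features, above 1.5 or below -1.5, at an unadjusted p under 0.05 and with the pair averaging more than 0 Z) are given below beside the same share of all features. The criteria were applied with the p of limma, and the two-way test of age, sex and diet that followed them in the study was not repeated. Medians of the members' differences ran from -0.0143 to 0.0247 Z over the 14 comparisons.

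**Figure D2:**
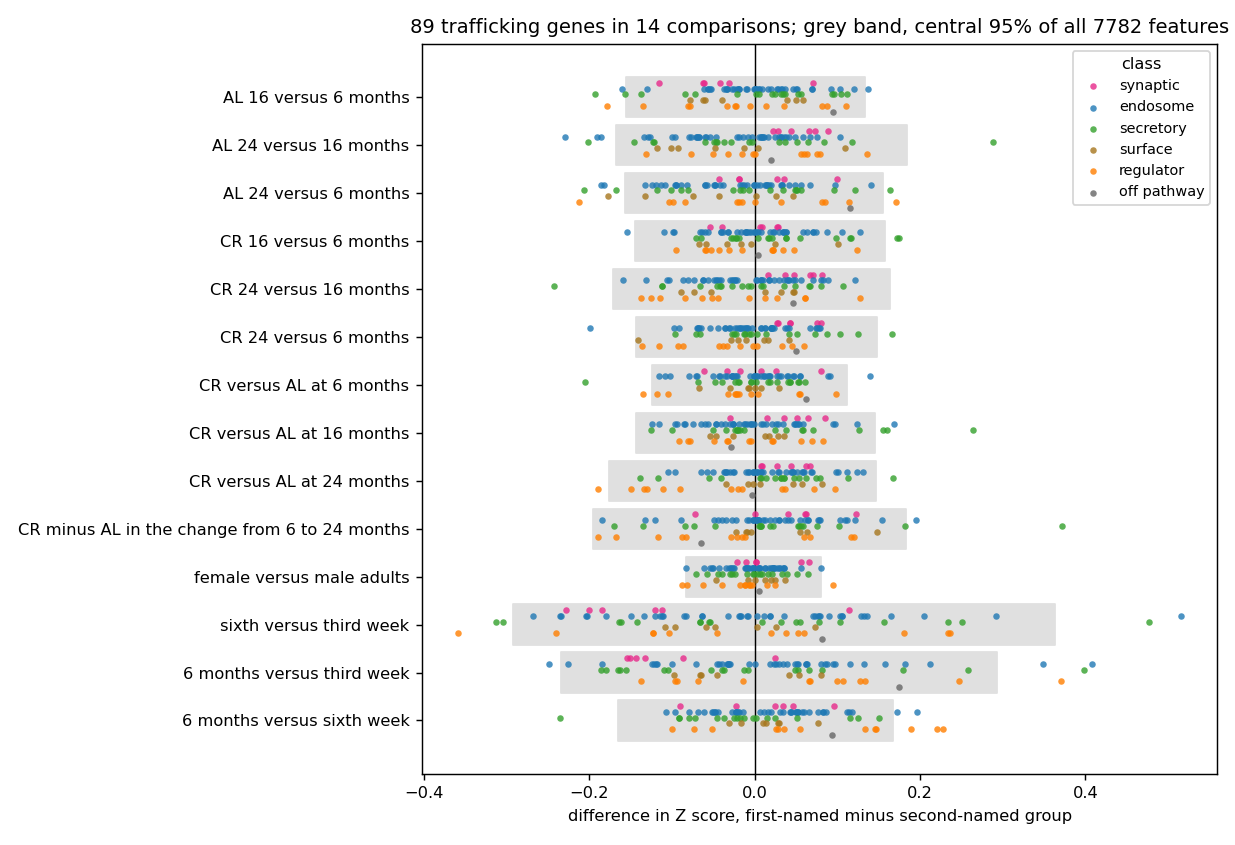
Difference in Z score (horizontal axis, first-named minus second-named group) of each of the 89 members in 14 comparisons (rows), coloured by class; grey bands hold the central 95% of all 7782 features. The members centre near 0 in every row, with medians of -0.0143 to 0.0247, and the widest bands are those of the comparisons with the third week.

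In AL mice, the comparison of 24 with 6 months gave 39 members higher and 50 lower, with a median of -0.0143 (all features -0.000375) and 4 members at an unadjusted p under 0.05 (4.49%; background 2.49%). Rab11fip1, an effector of Rab11 in recycling, lay at -0.28 to 0.02 (median -0.14) at 24 months and at -0.11 to 0.28 (median 0.075) at 6 months. The cohorts overlapped, and the difference was -0.19 ± 0.0784 (SE; limma adjusted p = 1). Against 16 months, where the values were -0.12 to 0.34 (median 0.045), it was likewise -0.19 (limma unadjusted p = 0.0187). Both comparisons share the mice of 24 months.

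Tbc1d17, a GTPase-activating protein of Rabs, was the only member past the criteria of the study in this comparison (background 0.475%). At 24 months it read 0.11, -0.04, 0.30, -0.02 and 0.27 in AL females and 0.02, 0.27, 0.12 and 0.11 in AL males. At 6 months it read 0.42, 0.24, 0.18, 0.15 and 0.30 in AL females and 0.24, 0.69, 0.54, 0.43 and 0.20 in AL males. The ranges overlapped, and the difference was -0.21 ± 0.0946 (SE; limma adjusted p = 1). Within the 5 runs of array numbers described below, it was -0.31, -0.28, 0.12, -0.17 and -0.03 in females, and -0.22, -0.27, -0.31 and -0.09 in males of the 4 runs that held males of both ages. Rab40c differed by -0.18 ± 0.0795 (SE; unadjusted p = 0.0303) and Tbc1d8 by 0.17 ± 0.084.

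Between 24 and 16 months of AL mice 0 members were past the criteria of the study (background 0.771%), and 6 members had an unadjusted p under 0.05 (1 higher and 5 lower; 6.74%, background 3.92%), 2 of them endosomal and 4 secretory. Rab36, a Rab of the Golgi region, was the higher one. Its values were -2.03 to -1.56 (median -1.79) at 24 months, -2.51 to -1.61 (median -2.05) at 16 months and -2.27 to -1.23 (median -1.97) at 6 months. The difference of 24 and 16 months was 0.29 ± 0.0998 (SE; limma unadjusted p = 0.0056), with overlapping cohorts, on a probe at a low position of its block of numbers. The 5 lower members were Rab11fip1, Vps26c, Rab6a, and the translocon subunits Sec61g (-0.20 ± 0.0901) and Sec61a2 (-0.12 ± 0.0597). Between 16 and 6 months 0 members reached this p (background 1.34%). The smallest p values were those of Rab36 (-0.19; unadjusted p = 0.0515), Tbc1d15 (-0.14) and Rab6a (0.10). Without 1 mouse each (AL female 1 of 6 months, AL female 5 of 16 months and AL male 5 of 6 months) these were -0.118, -0.0693 and 0.0663.

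In CR mice the same ages gave 0 members at an unadjusted p under 0.05 for 16 against 6 months (background 2.13%) and for 24 against 16 months (background 2.51%), and 1 for 24 against 6 months (background 1.12%). The genes of smallest p were Snx3 (0.09), Snx30 (-0.15) and Sec62 (0.12) in the first, Rab5b (0.12), Sec22a (-0.24) and Vps35l (-0.10) in the second, and Gdi2 (-0.14 ± 0.0658, SE), Vps16 (-0.20) and Stx3 (-0.14) in the third. Gdi2 was also past the criteria of the study there (background 0.09%). Without CR female 5 of 24 months the differences of Gdi2 and Stx3 were -0.0938 and -0.0773, and without CR female 4 of 6 months that of Vps16 was -0.115. In the same comparison Alas2, 1 of 2 blood and endothelial markers, differed by -0.21 (unadjusted p = 0.0255). Of these 2 markers 0 were higher, and their median difference was -0.136. Dcn, 1 of 4 meningeal and choroid plexus markers, differed by -0.15 (unadjusted p = 0.0236). Of these 4 markers 1 was higher, and their median difference was -0.0507. The sum of the blood and endothelial markers was -1.8 to -1.31 in CR mice of 24 months and -1.48 to -0.668 in CR mice of 6 months, that of the 4 meningeal and choroid plexus markers -0.505 to 0.46 and -0.195 to 0.625 at these ages, and their part in the result was not tested.

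Diet was compared at each adult age. At 6 months 0 members had an unadjusted p under 0.05 (background 0.655%), and Snx30 (0.14), Rab33b (-0.21) and Rab35 (0.09) had the smallest p. At 16 months 4 had (3 higher and 1 lower in CR; 4.49%, background 2.13%): Rab36 (0.26 ± 0.103), Vps37b, a subunit of the ESCRT-I complex (0.17 ± 0.0813), Snx3 (0.10 ± 0.0476) and Rab11a (-0.12 ± 0.0582; SE). The value of Rab36, on a probe at a low position of its block, rests on the same AL mice of 16 months as its differences with age. Rab36 averaged -2.07 in these mice and -1.88 to -1.75 in the other adult cohorts. Rab11a alone was past the criteria of the study (background 0.668%). Its values were 0.33, 0.22, 0.265 and -0.315 in CR females and 0.10, 0.34, 0.19 and 0.25 in CR males, against 0.37, 0.215, 0.305, 0.285 and 0.12 in AL females and 0.30, 0.40, 0.46, 0.235 and 0.28 in AL males. The value of -0.315, from CR female 5, lay apart, and without that mouse the difference was -0.0512.

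At 24 months 54 members were higher and 35 lower in CR than in AL mice, with a median of 0.00875 (all features 0.00492). The difference was positive for all 6 synaptic genes, with a class median of 0.0358, and for 52.6% of all features. At 6 and 16 months 3 and 5 of the 6 were higher in CR. All 6 were also higher at 24 than at 16 months in AL mice (median 0.0554, beside 48.6% of all features higher). So were they in CR mice (median 0.0575, beside 52%). The same held at 24 against 6 months in CR mice (0.0428, beside 50.8%), but for 3 of 6 in AL mice (beside 49.7%). These comparisons share the mice of 24 months, and the 6 genes are not independent of each other. The class medians were smaller than the median SE of a member's difference, which was 0.0767 to 0.0866 in these comparisons. In the diet comparison at 24 months 0 synaptic genes had an unadjusted p under 0.05. One member, Gdi2, had such a p (1.12%; background 2.25%) and was past the criteria of the study (background 0.321%). Gdi2 read 0.15, 0.16, 0.38 and -0.11 in CR females and 0.11, 0.06 and 0.04 in CR males. It read 0.23, 0.19, 0.15, 0.25 and 0.20 in AL females and 0.27, 0.45, 0.37 and 0.47 in AL males. The cohorts averaged 0.113 ± 0.149 in CR and 0.287 ± 0.116 in AL mice (SD, n = 7 and 9). With the sexes weighted equally the difference was -0.19 ± 0.0658 (SE; limma adjusted p = 0.999; unadjusted p = 0.00577). Within the 5 runs of array numbers it was -0.12, -0.13, -0.14, -0.10 and -0.445, but 3 of these values set mice of unequal sex against each other. Within a run and a sex it was -0.08, 0.01, 0.13 and -0.31 in females (4 runs) and -0.16 and -0.33 in males (2 runs), each from 1 mouse of either diet, so the females had both signs.

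The 3 CR males all lay below the 4 AL males, whereas the females of the diets overlapped. In males alone the difference of Gdi2 was -0.32 ± 0.0989 (SE; limma adjusted p = 0.314), in females alone -0.06 ± 0.0869 (adjusted p = 0.829), and the difference between these effects was 0.26 ± 0.132 (adjusted p = 0.251). At an unadjusted p under 0.05 there were 6 members in males (6.74%; background 12.8%) and 0 in females (background 5.37%). These CR males were also the younger mice. At the other ages Gdi2 averaged 0.242 ± 0.105 in CR and 0.265 ± 0.162 in AL mice of 6 months, and 0.191 ± 0.159 and 0.241 ± 0.101 in CR and AL mice of 16 months. Its 6 to 24 month change differed between CR and AL by -0.17 ± 0.0889 (SE; unadjusted p = 0.0639), in a comparison where 0 members had an unadjusted p under 0.05 (background 0.9%), 0 were past the criteria of the study (background 0.0643%), and Rab33b (0.37) and Tbc1d8 (-0.19) came next. A pair of probes annotated to both Tasor2 and Gdi2 differed between CR and AL at 24 months by -0.03 ± 0.0656 and -0.09 ± 0.231 (SE). These probes averaged -0.84 and -1.89, against 0.235 for the probe of Gdi2 alone. In the same comparison Dcn, 1 of 4 markers of choroid plexus and meninges, differed by -0.13 (unadjusted p = 0.0439), and the others, Col1a1, Col1a2 and Igf2, by 0.10, 0.01 and -0.06. The summed Z score of these 4 markers was -0.505 to 0.46 in CR and -0.155 to 0.565 in AL mice, and its part in the result was not tested.

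**Figure D3:**
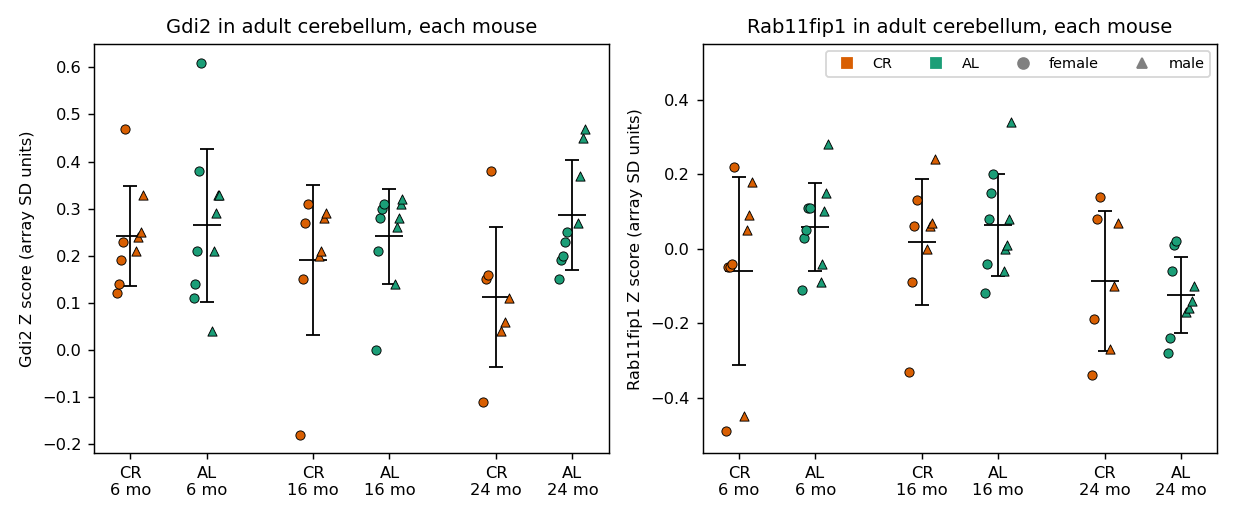
Z score (vertical axis, SD units of an array) of Gdi2 (left) and Rab11fip1 (right) in each adult mouse, CR beside AL at 6, 16 and 24 months (mo), with circles for females and triangles for males; bars are the cohort mean and SD. Gdi2 of the 3 CR males of 24 months lies at 0.04 to 0.11, under the 0.27 to 0.47 of the 4 AL males, and all other cohorts overlap.

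The diet effect at 24 months was also set against sex for every member. The difference between the effects in females and males had an unadjusted p under 0.05 for 14 members (15.7%), against 20% of all features, and 0 members were called (background 0.0257%). Stx17, a SNARE of the endoplasmic reticulum and of autophagosomes, had the largest difference, 0.60 ± 0.182 (SE; limma adjusted p = 0.139). It read -0.08, 0.19, 0.39 and 0.39 in CR females and -0.01, 0.04 and 0.17 in CR males, against 0.05, 0.10, -0.16, 0.09 and 0.12 in AL females and 0.14, 0.81, 0.49 and 0.49 in AL males. Rab38, a Rab of lysosome-related organelles, had the opposite pattern, at -0.56 ± 0.182 (adjusted p = 0.14). Stx17 and Rab38 correlated by 0.83 and -0.786 with a shared axis of the arrays that is described below. That axis was taken from deviations from the group means, so each group averages 0 on it. Arrays scored on its direction with the group means kept averaged 0.0506 in CR females and 0.0823 in AL males of this age. They averaged -0.032 in CR males and -0.0561 in AL females. The part of the axis in these differences was not tested. Over all adults, females and males differed at an unadjusted p under 0.05 in 0 members (background 1.29%). The smallest p values were those of Rab11a (-0.05), Tbc1d2b (0.09) and Tbc1d17 (-0.08; female minus male). Of the 33 differences singled out in comparisons of adults, 15 shrank by more than 1.5 times when 1 mouse was left out.

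Among the 14 comparisons, features were called only in the sixth week and 6 months against the third week, and none of them was a member. In the sixth against the third week 24 features (0.308%) were called and 0 members. At an unadjusted p under 0.05 there were 15 members (6 higher and 9 lower; 16.9%, background 13.4%), of which 7 were endosomal, 5 secretory and 3 regulators. In 6 months against the third week 32 features (0.411%) and 0 members were called, and 10 members (7 higher and 3 lower; 11.2%, background 10.7%) had such a p.

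Vps45 had the smallest p of the members. In the sixth week it read 1.85 and 1.83 in females and 1.81, 1.39 and 1.97 in males. In the third week it read 1.73, 1.51 and 1.55 in females and 0.42 and 1.45 in males. The difference was 0.52 ± 0.136 (SE; limma adjusted p = 0.0778). Sec23ip read 1.74 and 1.66 in females and 1.52, 1.27 and 1.86 in males of the sixth week, against 1.47, 1.39 and 1.42 in females and 0.40 and 1.34 in males of the third week (0.48 ± 0.13; adjusted p = 0.0972). In both genes the ages overlapped, since a male of the sixth week read 1.39 and 1.27, below all mice of the third week but 1, its male 1.

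That mouse gave the lowest score of the 5 mice in both genes, and its array had the lowest median correlation, 0.921, among those used. Tbc1d10b, a Rab GTPase-activating protein, read -0.09 in it, beside 1.13 in the other male and 1.05, 1.08 and 0.96 in females of that age. Without this array Vps45 differed between the sixth and the third week by 0.26 ± 0.137 (adjusted p = 0.78) and Sec23ip by 0.242. Tbc1d10b, which had differed between 6 months and the third week by 0.37 ± 0.0975 (adjusted p = 0.0648), then differed by 0.065. Of all features 1 (0.0129%) was then called in either comparison, and 7 and 3 members (7.87% and 3.37%) had an unadjusted p under 0.05, beside backgrounds of 6% and 4.14%. Without the other male of the third week, which leaves the first as the only male of that age, 6 members (6.74%) were called in each comparison, beside 8.07% of all features in the sixth against the third week and 7.35% in 6 months against the third week. Within the 3 runs of array numbers that held both ages, the sixth week minus the third week difference of Vps45 was 0.08, -0.12 and 0.4, each between 2 mice of opposite sex.

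Sec61a2, a channel subunit of the translocon, read 0.61 and 0.93 in females and 0.74, 1.06 and 0.62 in males of the sixth week, against 0.87, 1.01 and 1.18 in females and 1.23 and 1.10 in males of the third week, with overlap. The difference was -0.30 ± 0.0836 (SE; limma adjusted p = 0.0998), and -0.272 without that male. Within the 3 runs that held both ages it was -0.13, 0.05 and -0.49. Sec24c, a COPII coat subunit that selects cargo, read 0.13 and 0.06 in females and 0.03, 0.45 and -0.23 in males of the sixth week, against 0.43, 0.38 and 0.42 in females and 0.47 and 0.32 in males of the third week (-0.31 ± 0.113; adjusted p = 0.226). Within the 3 runs that held both ages its difference was -0.4, 0.07 and -0.19. The readings of 0.06 and -0.23 came from run 5, which held no mouse of the third week. Run 3 held none of the sixth week, so age and run are partly confounded in this comparison. Vps45, Sec23ip, Sec61a2 and Sec24c were the 4 members past the criteria of the study (4.49%; background 4.1%).

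**Figure D4:**
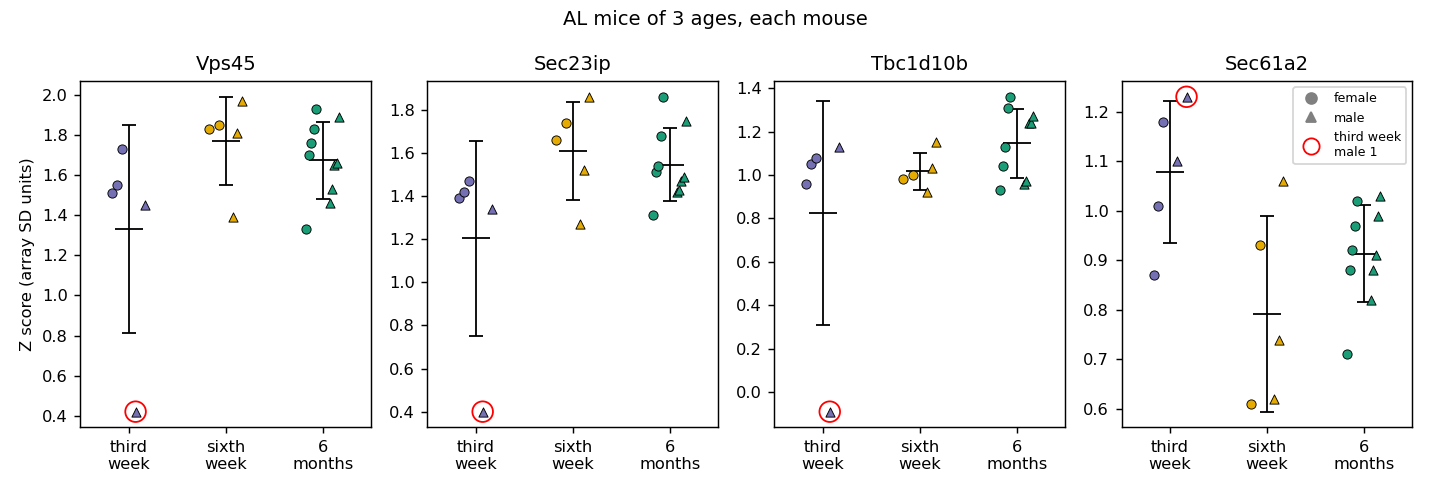
Z score (vertical axis, SD units of an array) of Vps45, Sec23ip, Tbc1d10b and Sec61a2 in each AL mouse of the third week, the sixth week and 6 months (horizontal axis), with circles for females, triangles for males and bars for the mean and SD. Male 1 of the third week, ringed, reads 0.42, 0.40 and -0.09 in the leftmost 3 genes, apart from all other mice, and 1.23 in Sec61a2.

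Among the other members with a small p in these weeks, the difference of the sixth and the third week was 0.25 ± 0.0909 (SE) for Copa, 0.29 ± 0.132 for Snx1, 0.21 ± 0.0906 for Vps54 of the GARP tether, -0.24 ± 0.0967 for Snx2, -0.20 ± 0.086 for the early endosomal Rab5b, -0.27 ± 0.115 for Snx30 and -0.24 ± 0.0699 for Tbc1d23. Without male 1 of the third week that of Vps54 was 0.01. Those of Copa and Snx1 were then 0.261 and 0.257, and those of Snx2, Rab5b, Snx30 and Tbc1d23 were -0.231, -0.134, -0.196 and -0.208. Tbc1d14, which differed by -0.12 with that array, differed by -0.395 without it. The synaptic class had 5 of 6 genes lower in the sixth week, with a median of -0.15 and 0 at an unadjusted p under 0.05. Of all features 48.1% were higher in the sixth week. For 6 months against the third week, Tbc1d10b, Sec23ip (0.40), Vps45 (0.41) and Tbc1d17 (0.25) were past the criteria of the study (4.49%; background 4.07%). Without male 1 of the third week these differences were 0.163 for Sec23ip, 0.151 for Vps45 and 0.179 for Tbc1d17. For 6 months against the sixth week 3 members, all higher, had an unadjusted p under 0.05 (3.37%; background 1.72%): Tbc1d23 (0.15), Rab11fip1 (0.20) and the retromer subunit Vps29 (0.17). Tbc1d23 alone was past the criteria (background 0.398%). The Purkinje cell markers Car8 and Calb1 differed between the sixth and the third week by 0.31 and -0.17 (unadjusted p = 0.0145 and 0.0414), and by 0.29 and -0.16 between 6 months and the third week. The sum of these 2 markers was 0.72 to 1.03 in the sixth week, 0.56 to 1.2 at 6 months and 0.205 to 1.17 in the third week, and its part in these results was not tested. Fewer cells of a type and less RNA per cell cannot be told apart in such tissue.

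Calls among the members were made between runs of array numbers. The numbers fall into 5 runs, none of which holds 2 mice of the same group, and no source used here says whether a run is a processing batch. With the run as a term in the fit, 52 of 89 members (58.4%) differed between runs at an adjusted p under 0.05, against 55.6% of all features, and 55 had an unadjusted p under 0.05 (61.8%; background 61.4%). Those at the adjusted threshold were 3 of 6 synaptic, 25 of 43 endosomal, 11 of 19 secretory, 6 of 7 surface genes, 6 of 13 regulators and Vps72. With all 66 arrays 36 members did (40.4%; all features 39.6%), after quantile normalization 45 (50.6%; 47.8%) and after correction for probe position 46 (51.7%; 43.7%). Vps37b had the smallest p in this test (adjusted p = 1.76e-07), with means of -0.315, -0.565, -0.582, -0.591 and -0.638 in runs 1 to 5. Tbc1d1, a GTPase-activating protein known from glucose transporter traffic, had 0.641, 0.504, 0.635, 0.666 and 0.885, and Sec24c had 0.261, 0.305, 0.302, 0.179 and -0.00667. The median share of a member's sum of squares was 20.4% for the 16 groups and 20% for the runs, beside 21.9% and 18.5% over all features.

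A single axis carried 29.4% of the variance of all features between mice of the same group. Its mean was -0.0467, -0.126, -0.0218, 0.0215 and 0.158 in runs 1 to 5. Of the members 43 (48.3%) correlated with it by more than 0.5 in either direction, 22 positively and 21 negatively, against 51.4% of all features. Tbc1d1 (r = 0.911 over 63 arrays), the secretory vesicle Rab3d (0.859), Rab11fip2 (0.857), Snx32 (0.849) and Vps35 (0.845) were at one end. Rab9, which acts in late endosome to Golgi transport (-0.842), Sec24c (-0.834), Sytl4 (-0.831) and the GTPase-activating protein Tbc1d15 (-0.8) were at the other. The synaptic class was split, with Rab3d at one end and Sytl4, Stxbp5 and Syt11 (-0.748 each for the last 2) at the other. Of the COPI coat, Copa had 0.801, Cope 0.756, Copg1 0.359 and Copg2 -0.761. The 3 retromer subunits all had positive values, 0.845 for Vps35, 0.655 for Vps29 and 0.404 for Vps26a.

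**Figure D5:**
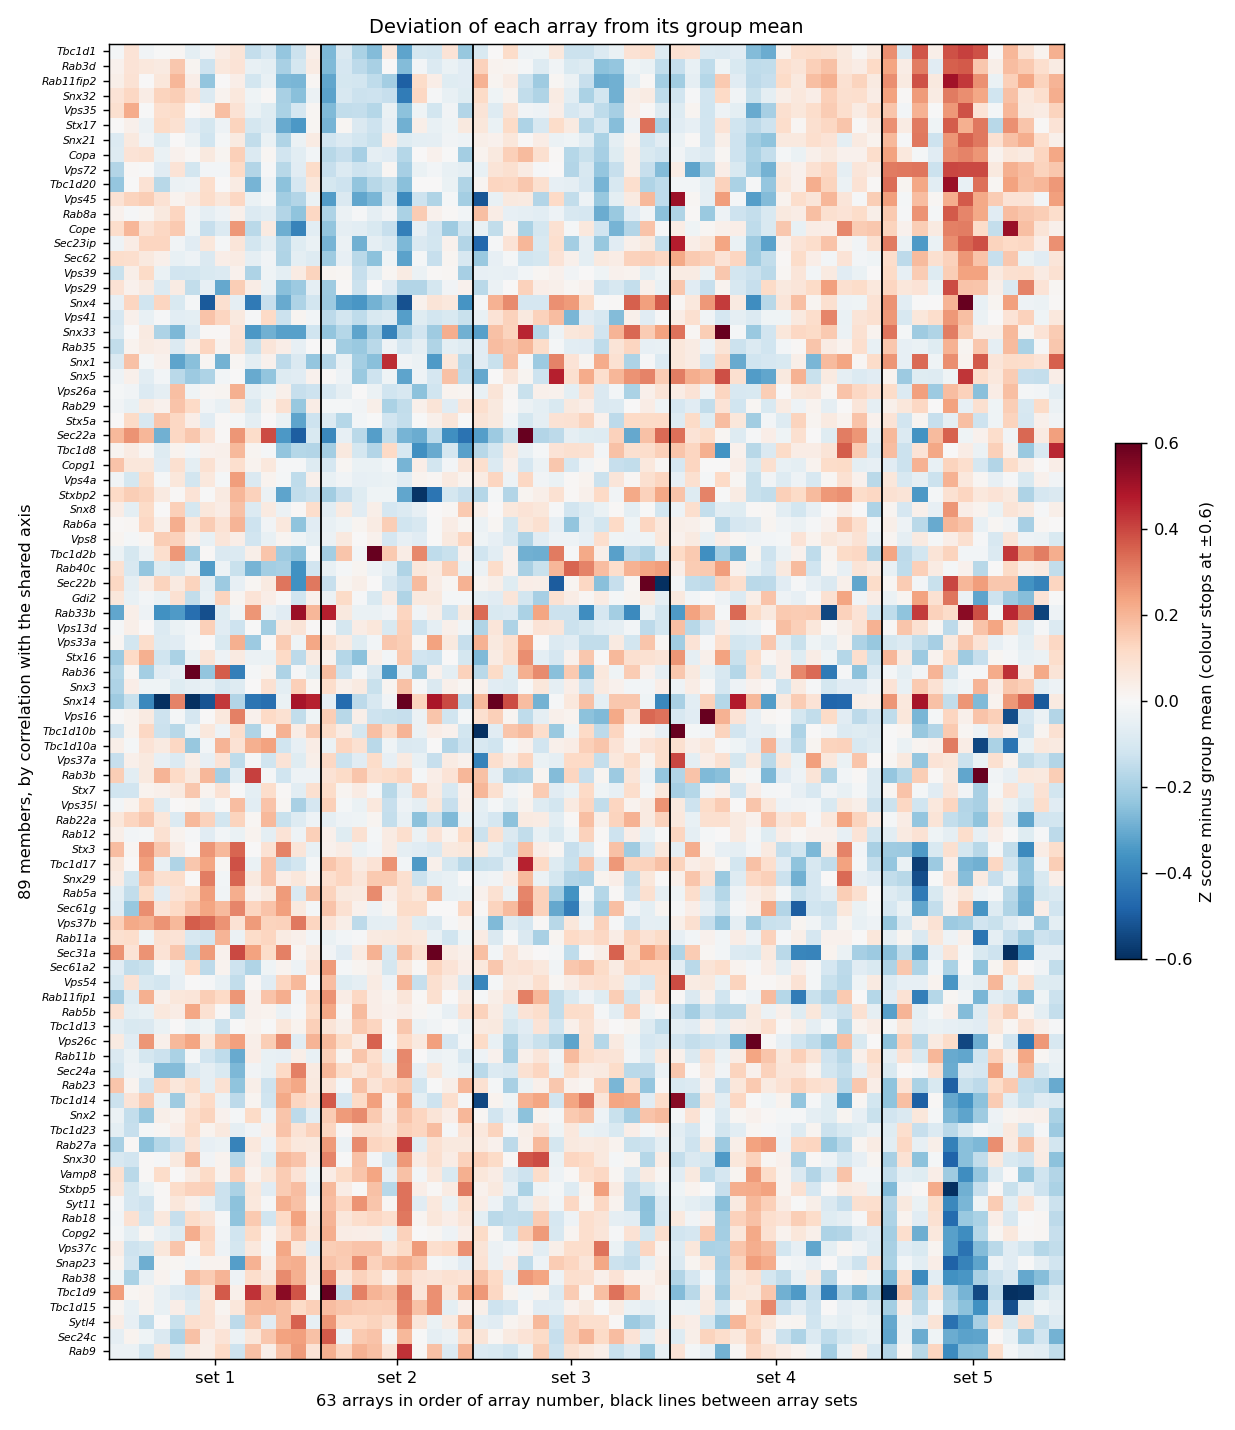
Deviation of each array from the mean of its group (colour, Z units, red above and blue below, stopping at ±0.6) for the 89 members (rows, ordered by correlation with the shared axis) over 63 arrays in order of array number (columns), with black lines between the 5 runs. The upper rows turn from blue to red towards run 5 and the lower rows do the reverse, in step with axis means of -0.126 in run 2 and 0.158 in run 5.

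Pairs of members followed the same pattern. Of 3916 pairs, 17.3% correlated by more than 0.5 in either direction over deviations from the group means, beside 16.2% of all pairs of features. The closest pair was Rab11fip2, a Rab11 effector, and Snx32, with r = 0.942 (rho = 0.931; r = 0.93 without the 2 arrays farthest from the median, and 0.921 within runs). Sec23ip and Vps45 had 0.865 (0.828 within runs, 0.827 without the third week), and Rab11fip1 and Sec61g 0.851 (0.818 within runs). Sec24c and Tbc1d1 had -0.809 (-0.723 within runs). Vps45 and Tbc1d10b, which were both low in male 1 of the third week, had 0.285, and -0.107 without the third week. The points of these correlations share the array and its hybridization, and genes are not independent of each other.

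Other genes of the pathway were read from lists drawn up by function: 84 genes of synaptic vesicles, clathrin and its adaptors, the endoplasmic reticulum and Golgi, Rab effectors and enzymes, and the exocyst and ESCRT complexes. Of these, 0 were called in each of the 14 comparisons. In the sixth against the third week 7 were higher and 6 lower at an unadjusted p under 0.05 (13 of 84, or 15.5%, beside the 13.4% of all features). Among these Chm, the escort protein that presents Rabs for prenylation, differed by 0.40 (unadjusted p = 0.000741). Dennd4c, an activator of Rab10, differed by 0.34, Ap2s1, a subunit of the clathrin adaptor AP-2, by 0.37, and Exoc4 of the exocyst by -0.20. Also lower were the adaptor subunits Ap3b2 (-0.28) and Ap4m1 (-0.20), and Dnm1l (-0.22). All these values include the array of male 1 of the third week. For 24 against 6 months in AL mice 1 of the 84 was higher, Gbf1, the Arf activator of the early Golgi (0.18), and 0 were lower (background 2.49%). For CR against AL at 24 months 0 were higher and 1 of the 84 lower, the tethering subunit Trappc12 (-0.24; background 2.25%). Both counts were below these shares of all features.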

How the data were processed

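Radiolabelled cDNA of each mouse was hybridized to 1 nylon filter of cDNA clones. The authors quantified the spots and deposited a Z score for each probe and array, with mean 0 and SD 1 over each array's probes. The use of logarithms and the background correction are not stated in the sources read. Groups came from the sex, age and diet in the labels (16 groups). The 3 arrays with a median correlation under 0.9 were left out. No 2 arrays were identical (highest correlation 0.988).

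One mean per group was fitted to 63 arrays by limma 3.58.1 (R 4.3.3; functions lmFit, contrasts.fit and eBayes), with 47 residual degrees of freedom, without a filter on signal, with sexes weighted equally and two-sided tests. The model was tested on simulated data. Columns that could not be tied to a sample numbered 0.

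The members, the lists and the alternatives were chosen with earlier results of these data known. The genes named are, for each comparison, called members or else the 3 of smallest p, members past the criteria of the study, the textbook members measured, the 3 most variable members of a class, and members with 2 probes. Other genes of the pathway with a value in the text were chosen after their values were seen, as were the sex by diet test at 24 months, the test between runs and the fit without male 1 of the third week. Alternatives were all 66 arrays, the run as a block, array weights, quantile normalization, correction for probe position, a mean Z score above 0, the highest probe of a gene, females alone, and each mouse left out in turn.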

Additional observations from a re-analysis of the deposited data

Results flagged for a closer look

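For 31 of the named members, the mice of a group of 4 or 5 were searched for 1 mouse far from the others, as a gap past Dixon's critical value. Of 341 such sets of values, 19 (5.57%) held one, and chance gives about 1 in 20. No explanation was weighed.

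Among CR mice, Rab11a read -0.315 in female 5 of 16 months, against 0.22 to 0.33 in the other females. Tbc1d10a read -0.98 in the same mouse, against -0.29 to -0.23. Tbc1d10b read 1.14 in female 3 of 16 months (others 0.97 to 0.99), and Rab5b -0.35 in male 5 of that age (others -0.03 to 0.02). At 6 months, Rab36 read -1.67 in CR female 3 (others -1.97 to -1.9), Rab6a 0.14 in CR female 5 (others 0.31 to 0.37), Tbc1d10a -0.55 in CR female 2 (others -0.37 to -0.32) and Vps16 0.28 in CR female 4 (others -0.67 to -0.52). In CR male 2 of that age Rab5b read 0.25 (others -0.01 to 0.02) and Sec23ip 1.29 (others 1.66 to 1.71). Vps45 read 1.55 in CR female 1 of 24 months, against 1.81 to 1.84 in the other females.

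Among AL mice of 6 months, Rab36 read -1.23 in female 1 (others -2.08 to -1.88), Snx3 1.56 in female 2 (others 1.33 to 1.35) and Sec23ip 1.75 in male 4 (others 1.42 to 1.49). At 16 months, Rab40c read -0.74 in AL female 1 (others -0.445 to -0.345) and Vps37b -0.32 in the same mouse (others -0.67 to -0.58). Snx30 read -0.71 in AL male 1 (others -0.53 to -0.48) and Vps16 -1.12 in AL female 5 (others -0.56 to -0.36) of that age. Sec24c read 0.3 in AL male 1 of 24 months, against -0.06 to 0 in the other males.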

How the results depend on the processing

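No member was called under any setting in the 12 comparisons without the third week, and no direction of a named gene turned except that of Gdi2 in the CR minus AL change, 0.001 in females alone. In the sixth against the third week 1 member was called with array weights (Vps45; 1.12%, all features 0.463%), 3 with only features of a mean Z score above 0 (6.25%; 1.21%) and 2 after correction for probe position (2.25%; 0.874%). In 6 months against the third week 1 was called under each of the last 2 settings (Tbc1d10b; 2.08% and 1.12%, all features 1.32% and 0.54%). Leaving out each mouse in turn gave 0 to 6 called members in both comparisons. The 6 came without male 2 of the third week, and 4 were called without male 2 of the sixth week (4.49%; all features 0.861%).

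Members past the criteria of the study moved more. With the run of array numbers as a block they were 2 for AL 16 versus 6, AL 24 versus 16 and AL 24 versus 6 months, 0 for CR versus AL at 16 months and 2 for CR versus AL at 24 months. With array weights they were 3 for AL 16 versus 6, 5 for AL 24 versus 6 and 4 for CR 24 versus 16 months, 1 and 2 for CR versus AL at 6 and 24 months, 2 for the CR minus AL change, 1 for sex and 4 for 6 months versus the sixth week. After position correction they were 2, 2 and 3 for AL 16 versus 6, 24 versus 16 and 24 versus 6 months, 1 for sex, 7 for the sixth versus the third week and 2 for 6 months versus the sixth week. With a mean Z score above 0 they were 2 for AL 24 versus 16 months and 2 for 6 months versus the sixth week. Quantile normalization gave 2 for AL 24 versus 6, 0 for CR 24 versus 6 months and 0 for CR versus AL at 16 months, where the highest probe of a gene also gave 0. All 66 arrays gave 2, 3 and 0 for CR 16 versus 6, 24 versus 16 and 24 versus 6 months, 3 and 2 for CR versus AL at 16 and 24 months and 2 for 6 months versus the sixth week. Females alone gave 0 for CR 24 versus 6 months and for CR versus AL at 24 months. Over these settings the criteria took 0% to 10.4% of members and 0.0129% to 9.76% of all features. The cause of these shifts was not tested.

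Leaving out each mouse in turn gave 0 to 3, 0 to 2 and 0 to 4 members past these criteria for AL 16 versus 6, 24 versus 16 and 24 versus 6 months, and 0 to 1 in each of the 3 CR comparisons of age, in CR versus AL at 6 and at 16 months and in the CR minus AL change. It gave 1 throughout for CR versus AL at 24 months, 4 to 6 for the sixth versus the third week, 1 to 6 for 6 months versus the third week and 0 to 5 for 6 months versus the sixth week (0% to 6.74% of members over all comparisons, and 0.0129% to 6.14% of all features). No paired analysis was made because each array came from a different mouse, and the run of array numbers served as the only block. Signal over background was not given, so precision was judged only from the spread between arrays.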
